A study of Mus musculus with 3 samples.

Results

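Library 3 of the series was set against library 1, gene by gene, over cells brought to the same depth. The deposited matrix joins 3 single-cell libraries, and the suffix of each cell barcode gives the library. Cells with at least 2000 UMIs (unique molecular identifiers, each standing for 1 captured transcript) were kept and each was thinned at random to 2000 UMIs, which left 408 of the 609 cells of library 1 and 3284 of the 3322 cells of library 3, 3692 of the 7522 cells in the file. The study sorted YFP (+) microglia by FACS, with size selection and doublet exclusion, from the lumbar cord of young adult C57BL/6 mice of both sexes that were heterozygous for Cx3cr1-creER-yfp, a knock-in that places a tamoxifen-dependent Cre and the reporter in the Cx3cr1 gene. The mice were naive or were taken 24 h or 48 h after sciatic nerve transection (SNTr), the tissue of 3 animals was pooled for each of these groups, and every group carried the reporter allele. Neither the labels nor the methods say which suffix is the naive, the 24 h or the 48 h group, so the values below are those of library 1 and library 3 of unknown time point. Each side is 1 library, so there is no replicate and no test, and time point, pool of animals, sort and library preparation cannot be told apart. Intervals in square brackets are exact 95% limits that cover counting error only.

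Library 1 stood apart before any gene was compared. It held a median of 2218 UMIs per cell (2487 over the cells used), against 5742 (5768) in library 3 and 5952 in library 2, and 201 of its cells but only 38 of library 3 fell under 2000 UMIs. The cells used carried a median of 0.925% mitochondrial UMIs in library 1 and 1.20% in library 3, and at 2000 UMIs a median of 1111 and 1104 genes. Libraries 1 and 3 shared 3 barcodes, 1 of them among the cells used. Where depth, mitochondrial share or thinning moves with a result, its part was not tested except where a value is given.

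Microglia are the resident macrophages of the central nervous system, and at rest they are known by genes such as P2ry12, Tmem119, Fcrls and Cx3cr1. Like most cells they hold a set of early response genes, among them the AP-1 factors of the Fos and Jun families, Egr1, the Ier genes and several Kruppel-like factors, which signalling through MAP kinases, cyclic AMP or calcium can switch on without new protein synthesis. Many of the same genes encode brakes on that response, such as the phosphatase Dusp1 and the mRNA decay factor Zfp36. Early response genes, heat shock genes and chemokine genes are also known to be induced in microglia while tissue is dissociated and sorted.

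The stretch of DNA just before the start of 5 genes that library 3 held at a higher level is printed to show what these promoters carry. The 5 genes were picked by name as examples and do not stand for the higher genes as a set. The windows are the 250 bases before the RefSeq start (GRCm38.p6), written 5′ to 3′ on the strand of the gene: Fos at chr12:85473640-85473889 (plus strand), Dusp1 at chr17:26508473-26508722 (minus), Zfp36 at chr7:28379229-28379478 (minus), the inducible heat shock protein gene Hspa1a at chr17:34972157-34972406 (minus) and the endoplasmic reticulum chaperone gene Hspa5 at chr2:34771840-34772089 (plus). Capitals mark every match to one of 9 patterns searched on both strands: the cyclic AMP response element TGACGTCA and its shorter form TGACG, the AP-1 site (TGA and TCA around any 1 base), a heat shock pair of GAANNTTC or TTCNNGAA, the STAT site TTCNNNGAA, the TATA box TATAAA, and the CArG box, the NF-kB site and the endoplasmic reticulum stress element by name.
Fos: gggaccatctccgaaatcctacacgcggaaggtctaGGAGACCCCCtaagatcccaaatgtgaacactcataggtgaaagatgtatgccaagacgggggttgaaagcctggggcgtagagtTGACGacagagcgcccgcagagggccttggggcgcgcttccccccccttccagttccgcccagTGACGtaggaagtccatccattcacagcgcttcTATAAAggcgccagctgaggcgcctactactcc
Dusp1: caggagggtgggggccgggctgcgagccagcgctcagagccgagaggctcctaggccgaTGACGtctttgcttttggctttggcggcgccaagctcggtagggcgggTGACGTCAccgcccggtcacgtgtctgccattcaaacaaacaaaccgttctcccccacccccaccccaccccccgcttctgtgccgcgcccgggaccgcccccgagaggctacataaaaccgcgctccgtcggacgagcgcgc
Zfp36: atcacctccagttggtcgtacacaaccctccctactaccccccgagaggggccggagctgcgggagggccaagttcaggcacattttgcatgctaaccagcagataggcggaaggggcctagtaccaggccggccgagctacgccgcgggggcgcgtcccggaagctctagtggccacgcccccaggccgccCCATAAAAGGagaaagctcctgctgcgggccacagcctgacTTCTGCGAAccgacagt
Hspa1a: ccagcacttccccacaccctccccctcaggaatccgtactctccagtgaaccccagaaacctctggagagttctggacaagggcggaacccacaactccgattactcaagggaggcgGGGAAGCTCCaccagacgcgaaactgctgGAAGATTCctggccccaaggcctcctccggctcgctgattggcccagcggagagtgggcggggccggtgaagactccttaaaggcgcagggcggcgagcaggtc
Hspa5: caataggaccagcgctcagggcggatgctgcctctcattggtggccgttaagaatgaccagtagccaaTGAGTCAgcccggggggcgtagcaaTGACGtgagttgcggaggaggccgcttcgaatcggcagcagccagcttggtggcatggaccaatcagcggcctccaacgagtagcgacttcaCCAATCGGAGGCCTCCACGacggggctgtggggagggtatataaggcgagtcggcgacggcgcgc

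In the Fos window the shorter form of the cyclic AMP response element begins 129 and 66 bases before the start and TATAAA 33 bases before it. The Dusp1 window holds the full element 143 bases before the start, which contains the shorter form on each strand, and 1 further shorter form at 191. A CArG box, the sequence bound by serum response factor, lies 58 bases before the start of Zfp36, with a STAT site at 17, and a heat shock pair lies 104 bases before that of Hspa1a. The Hspa5 window holds an AP-1 site at 182, the shorter cyclic AMP form at 157 and the endoplasmic reticulum stress element at 65. These letters are descriptions of the windows and not evidence of binding.

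Of 27998 genes in the file, 3264 were compared because the mean of their levels in libraries 1 and 3 reached 50 CPM (counts per 1000000 UMIs, after thinning). In 116 of them (3.55%) library 3 was at least 2-fold higher than library 1 and in 114 (3.49%) at least 2-fold lower, and 3034 lay between. The call is one of size alone. These shares over all compared genes are the background for every count of called list members below. The median log2 ratio of library 3 to library 1 was −0.03 and 90% of genes lay between −0.88 and 0.88. The sizes of the differences were uneven: 36 genes were at least 4-fold higher and 17 at least 10-fold higher, while 3 were at least 4-fold lower. The counting interval lay wholly past 2-fold for 59 of the higher genes and 40 of the lower genes. A gene that reached 50 CPM through 1 library alone had to differ, and 45 of the higher and 50 of the lower genes were compared in that way. Each compared gene given below with under 50 CPM in library 1 or library 3 is of this kind. The direction of such a gene was set in advance. Among the lists described below this held, through library 3 alone, for 9 of 29 early response genes (3 of the 6 AP-1 genes) and 3 of 17 heat shock genes, and, through library 1 alone, for 3 of 11 MHC and 2 of 8 interferon-stimulated genes. Just inside the limit were Plk3, Stmn1 and Cct8 (2, 2.001 and 2.001) and Zfp950, Itch and Naip2 (0.500, 0.497 and 0.497), and just outside it were Tmx2, Poldip2 and 5031425E22Rik (1.996, 1.988 and 1.988) and Gatad2b, Zfp652 and Gm26520 (0.502, 0.504 and 0.505).

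Promoter windows of the kind printed above were at hand for 92 of the 116 higher, 65 of the 114 lower and 2540 of 3264 in all, and RefSeq gave a window for 27025 genes. The full cyclic AMP response element was in 10.9% of the windows of higher genes (10 genes), in 0 of those of lower genes, in 3.27% of those of all compared genes and in 1.77% of all windows. The shorter form, which the full element contains, was in 42.4%, 33.8%, 32.6% and 19.8% of them in the same order. The AP-1 site was in 8.70%, 6.15%, 5.24% and 7.82%, the STAT site in 9.78%, 4.62%, 7.09% and 8.13%, and TATAAA in 14.1%, 7.69%, 7.91% and 14.3%. The endoplasmic reticulum stress element was in the windows of 3 higher genes (3.26%) and in 0.315% of those of compared genes. The heat shock pair (13.04% of higher genes and 12.7% of compared genes), the NF-kB site (10.9% and 9.88%) and the CArG box (1.09% and 1.18%) were about as frequent in the windows of higher genes as in those of compared genes. The CArG box was in 1 window of a higher gene, that of Zfp36 printed above. Of 19 windows of early response genes called higher, 2 held the full cyclic AMP response element and 11 the shorter form. Of 6 windows of heat shock and chaperone genes called higher, 3 held the heat shock pair.

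The 116 higher genes took 29.4, 43.5 and 137 of the 2000 UMIs of an average cell in libraries 1, 2 and 3. The 114 lower genes took 55.8, 26.7 and 22.1. Library 2 was thus between the other libraries in both sets, and each of its ratios shares library 1 as the denominator. On the log2 scale it was nearer to library 1 for 66 of the higher genes and nearer to library 3 for 50, and it was nearer to library 3 for 102 of the 114 lower genes (89.5%, against 69.4% of all compared genes). Library 2 was itself at least 2-fold higher than library 1 for 38 of the 116 and at least 2-fold lower for 58 of the 114.

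**Figure D1:**
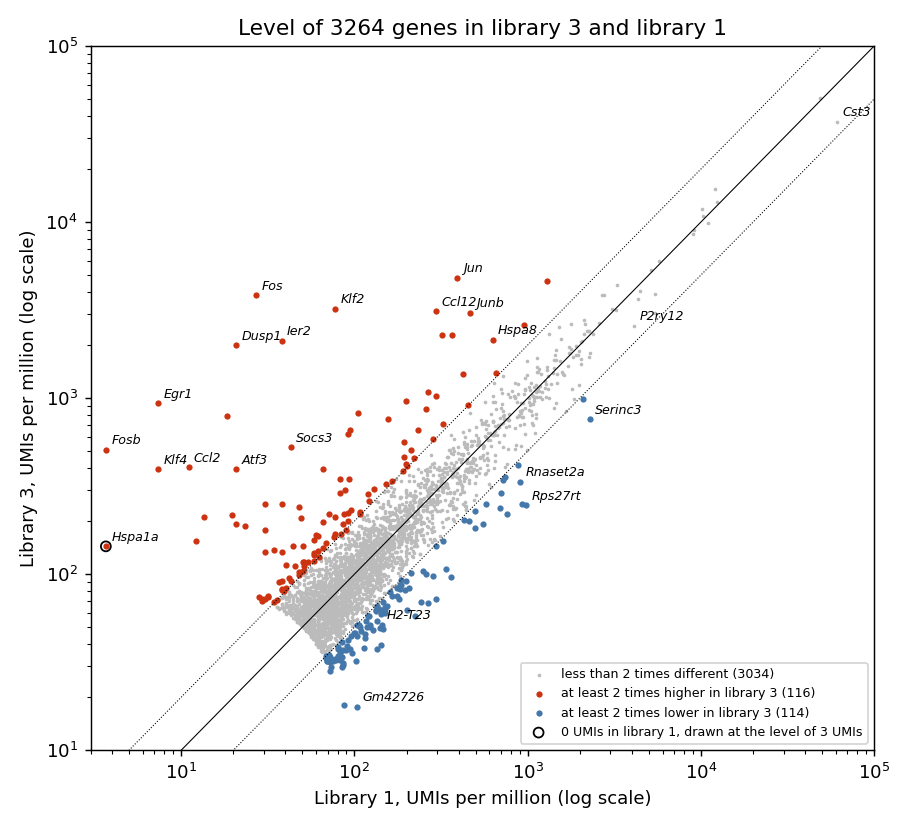
Level of each of the 3264 compared genes in library 1 (x axis) and library 3 (y axis), in UMIs per 1000000 (CPM) after thinning, both axes on a log scale, with a solid line at equal levels and dotted lines at 2-fold. Each point is 1 gene, red where library 3 was at least 2-fold higher and blue where it was at least 2-fold lower, and Fos, Egr1, Dusp1 and Ier2 lie far above the lines while most lower genes lie near the lower line.

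The AP-1 genes encode subunits of a dimeric transcription factor. Of the 10 listed, 6 were compared and all 6 were at least 2-fold higher (3.55% of all compared genes). Their median log2 ratio was 3.94 (all compared genes −0.03). Fos, Fosb and Atf3, 3 of the 6, were compared through library 3 alone and had to have a ratio above 1. Jun, Junb and Jund were not compared in that way, and the lowest log2 ratio of the 6, that of Junb, was 2.71. Fos was at 27.0 CPM in library 1, 174 in library 2 and 3848 in library 3, a ratio of library 3 to library 1 of 143 [94.3 to 228]. The gene spans chr12:85473890-85477273. A Fos UMI was found in 4.66% of cells of library 1 and 99.5% of cells of library 3. No cell type that lacks Fos was present to give the share that free RNA would produce, and the same holds for each share of cells below. Fosb, a related partner, rested on 3 UMIs in library 1 (3.68 CPM) and stood at 21.3 in library 2 and 509.7 in library 3, with a ratio of 139 [47.4 to 673] that was 81.7 when the cells were thinned with another random seed and 38.0 with a pseudocount of 10 CPM.

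The Jun partners were present in all libraries and were higher by less. Jun stood at 392, 605 and 4837 CPM in libraries 1, 2 and 3, 12.3-fold higher in library 3 than in library 1 [11.05 to 13.8]. Junb was at 467, 477 and 3048 CPM, and Jund, usually the steadily expressed member of the family, at 319, 307 and 2273 CPM. For both, libraries 1 and 2 lay close together and library 3 stood alone. Atf3, a stress-induced factor that pairs with Jun proteins, had the same shape, with 20.8, 19.5 and 396 CPM and a ratio of 19.0 [11.8 to 32.6].

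In the list of Egr, Nr4a and Ier genes 4 of 14 were compared and all 4 were higher (3.55% of all compared genes). However, 3 of the 4 were compared through library 3 alone and had to have a ratio above 1. Egr1, a zinc finger factor, rested on 6 UMIs in library 1 (7.35 CPM) against 53.4 CPM in library 2 and 936 in library 3, 127-fold [58.5 to 347], and the ratio was 64.1 with cells of at least 1000 UMIs thinned to 1000, 83.9 with another seed and 54.5 with a pseudocount of 10 CPM. Ier2 stood at 38.0, 99.7 and 2116 CPM (55.7-fold, [39.2 to 82.0]) and was found in 5.64% of cells of library 1 and 97.2% of library 3. Ier3, known as a survival factor, was 15.7-fold higher and Ier5, a cofactor of heat shock factor 1, 4.08-fold higher.

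The Kruppel-like zinc finger factors did not all differ. Klf2, which restrains inflammatory gene expression in myeloid cells, was at 77.2 CPM in library 1, 292 in library 2 and 3214 in library 3, 41.6-fold [32.5 to 54.2], and Klf4 was at 7.35, 12.05 and 396 CPM, 53.9-fold [24.7 to 147]. Klf6 was 4.85-fold higher. Klf13 and Klf3 had ratios of 1.03 and 0.906 and stood close to library 1, so 3 of the 5 compared members were higher (3.55% of all compared genes).

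Of the listed genes that feed back on the response, 1 of 2 compared on MAP kinases was higher. On mRNA decay and growth arrest 3 of 6 were (3.55% of all compared genes). Dusp1, the phosphatase that inactivates p38 and JNK, stood at 20.8, 54.1 and 1995 CPM in libraries 1, 2 and 3 (95.8-fold, [59.8 to 164]), while Dusp6, which acts on ERK, was at 463, 276 and 824 CPM (1.78-fold) and did not reach 2-fold. Among 6 compared genes of mRNA decay and growth arrest, Zfp36 (91.9 to 626 CPM from library 1 to library 3, 6.81-fold), which destabilizes mRNAs with AU-rich elements, its relative Zfp36l1 (3.37-fold) and the antiproliferative factor Btg2 (364 to 2283 CPM, 6.27-fold) were higher. The 3 others did not reach 2-fold, among them their family members Zfp36l2 and Btg1, with ratios of 0.596 and 1.503. Of the remaining early response genes, on G protein signalling and kinases, 5 of 6 compared were higher (3.55% of all compared genes). They were the secreted protease Adamts1 at 18.4, 60.4 and 789 CPM (42.9-fold, [26.0 to 76.7]), Rgs1 (6.00-fold), Rhob (2.103), the kinase Sgk1 (2.02) and Plk3 (2). Rgs2 had a ratio of 1.87.

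**Figure D2:**
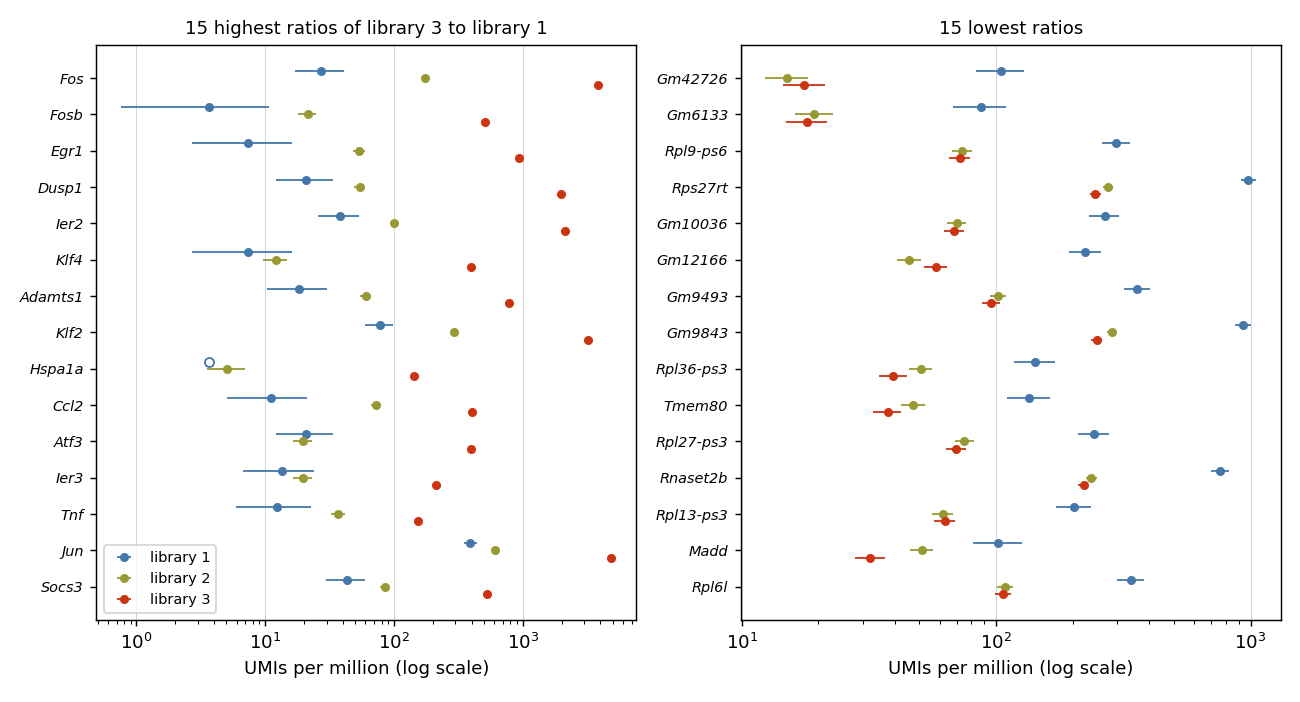
Level in library 1 (blue), library 2 (olive) and library 3 (red) of the 15 compared genes of highest ratio of library 3 to library 1 (left) and the 15 of lowest ratio (right), in UMIs per 1000000 (CPM) on a log axis, with exact 95% Poisson intervals of counting error as bars and the open circle of Hspa1a at the level of 3 UMIs, since library 1 held 0. Library 3 lies to the right of both other libraries in all 15 genes on the left, and library 1 lies to the right of both others in all 15 on the right.

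Summed over the 6 early response lists (65 genes, 60 of them with a UMI), the levels were 6750, 6246 and 37453 CPM in libraries 1, 2 and 3. Of the 29 compared genes 22 were higher and 0 lower, against 3.55% and 3.49% of all compared genes. A cell of library 1 held a median of 13 of these UMIs among its 2000 and a cell of library 3 a median of 74, with 90% of cells between 7 and 21 in library 1, between 6 and 21 in library 2 and between 40 and 118 in library 3. The 2 distributions hardly met: the highest cell of library 1 held 42 and the lowest of library 3 held 21, and 8 of 3284 cells of library 3 (0.244%) held fewer than 30, against 407 of 408 in library 1 and 3557 of 3569 in library 2. The higher level was therefore carried by nearly every cell of library 3. Within library 3 the cells were widely spread, with 671 cells at 30 to 49 UMIs, 809 at 50 to 69, 812 at 70 to 89, 657 at 90 to 109 and 327 at 110 or more (SD 25.4, against 4.60 in library 1).

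Of the 8 early response genes with most UMIs in library 3 (Fos, Jun, Junb, Jund, Klf2, Ier2, Dusp1 and Btg2, chosen after their values were seen), all 8 were found in 2826 of 3284 cells of library 3 (86.1%), in 0 of 408 cells of library 1 and in 3 of 3569 cells of library 2. The choice by level in library 3 set a high share there in advance. Single genes were already in nearly every cell of library 3 (Fos 99.5%, Dusp1 95.8%). Whether the genes go together within cells was not tested. Levels at like original depth were also higher in library 3, in cells that are most of library 1 but the shallow end of library 3. What part depth has in the difference was not tested. Cells with 2000 to 3000 UMIs before thinning held a mean of 13.9 early response UMIs in library 1 (339 cells) and 60.9 in library 3 (86 cells), and those with 3000 to 4000 held 11.8 (60 cells) and 62.2 (286 cells). In library 3 the mean was 73.9 in cells of 4000 to 6000 UMIs, 81.6 in cells of 6000 to 8000 and 73.5 above that, and over cells of 2000 to 4000 UMIs alone the summed level was 4.55-fold that of library 1, against 5.55-fold over all cells used.

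**Figure D3:**
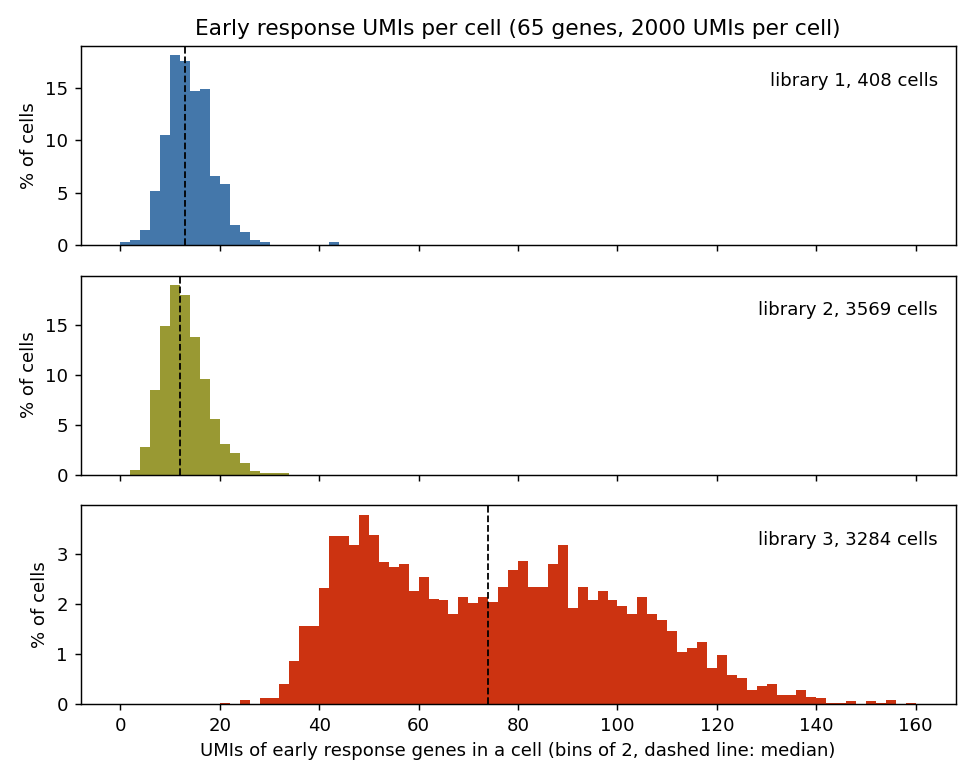
Distribution over cells of the UMIs of the 65 listed early response genes, of 2000 UMIs per cell, in libraries 1, 2 and 3 (x axis, UMIs per cell in bins of 2; y axis, % of cells, on a scale of its own in each panel; dashed line, median). Medians were 13, 12 and 74, and the cells of library 3 form a broad distribution with little overlap with the other libraries.

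Chemokine genes split into members that were far higher and members that were not. Of 7 compared, 4 were higher (3.55% of all compared genes). Ccl2, which recruits monocytes, was at 11.03, 72.7 and 404 CPM in libraries 1, 2 and 3 (36.6-fold, [19.2 to 80.1], resting on 9 UMIs in library 1, with 71.7 from cells of at least 1000 UMIs and 19.7 with a pseudocount of 10 CPM). Ccl12, a related ligand of the same receptor, was at 294, 948 and 3104 (10.6-fold, and 8.44-fold over cells of 2000 to 4000 UMIs). Ccl3 was at 105, 53.9 and 826 (7.84-fold) and Ccl4 at 157, 91.5 and 758 (4.83-fold). Ccl9 and Ccl6, which microglia express without stimulation, had ratios of 0.531 and 0.611, and Cxcl16 one of 1.22. The spread over cells differed as well. In library 1 the 5% of cells with most Ccl3 UMIs held 93.0% of them and for Ccl4 99.2%, against 26.0% and 32.0% in library 3, and Ccl3 was found in 6.37% of cells of library 1 and 68.6% of library 3. Ccl12 was found in 22.1% and 98.6% of cells. Ccl2 and Ccl12, and Ccl3 and Ccl4, are neighbouring and similar genes whose reads can be hard to separate, and how the counting treated such reads is not given in the sources used here.

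Among 5 compared cytokine and growth factor genes, Tnf was at 12.3, 36.7 and 155 CPM (12.6-fold, [6.84 to 26.4]) and the alarmin Il1a at 108, 102 and 218 (2.02-fold). Tgfb1, the ligand that maintains microglial identity, was at 583, 552 and 455 (0.780), and Pdgfb and Il16 had ratios of 0.883 and 0.624. Of 8 compared NF-kB genes 2 were higher (3.55% of all compared genes), Nfkbiz (23.3 to 188 CPM from library 1 to library 3, 8.10-fold) and the inhibitor gene Nfkbia (212 to 508, 2.39-fold). Nfkbiz was compared through library 3 alone. The factor genes Rela, Rel and Nfkb1 had ratios of 1.79, 0.951 and 0.788 and the target Icam1 one of 1.39. Tnfaip3, another inhibitor of the pathway, was below the level for comparison, with 25.7 CPM in library 1 and 26.3 in library 3 (ratio 1.02, and 0.536 over cells of 2000 to 4000 UMIs). In the Stat3 and Socs list 1 of 5 was higher, the cytokine signalling inhibitor Socs3 at 42.9, 84.6 and 525 CPM (12.2-fold, [8.78 to 17.6]), while Stat3 itself had a ratio of 1.28 and the receptor chain Il6st one of 0.525.

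Of 17 compared heat shock proteins and chaperones, 9 were higher and 0 lower (3.55% and 3.49% of all compared genes). Their median log2 ratio was 1.01, and the list's summed level was 3064, 4852 and 7595 CPM in libraries 1, 2 and 3. The summed level of library 2 thus lay between those of the other libraries. Hspa1a, the stress-inducible Hsp70, had 0 UMIs in library 1 and was at 5.04 CPM in library 2 and 144 in library 3. The ratio was 39.1 with library 1 taken at a floor of 3 UMIs (3.68 CPM), which is not a lower limit. The exact upper limit of 0 UMIs is 4.52 CPM, or 0.900% of cells with a UMI, and the exact lower limit of the ratio was 31.8. The ratio was 25.6 with cells of at least 1000 UMIs, 66.4 over all cells unthinned and 15.4 with a pseudocount of 10 CPM. It was found in 19.3% of cells of library 3. Its cochaperone Dnajb1 was at 30.6, 65.3 and 251 CPM (8.20-fold). The constitutive members Hspa8, the cytosolic Hsc70, at 627, 1140.2 and 2141 (3.41-fold) and Hsp90ab1 at 295, 667 and 1022 (3.46-fold) were higher by less. Hsp90aa1 was 4.23-fold higher. The mitochondrial chaperone Hspd1 was 2.14-fold higher, and the chaperonin gene Cct3 2.02-fold.

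The endoplasmic reticulum gene Hspa5, whose promoter window is printed above, was at 425, 817 and 1373 CPM (3.23-fold, [2.90 to 3.60], and 2.76-fold over cells of 2000 to 4000 UMIs), but its partner Hsp90b1 had a ratio of 1.33. In the list on the unfolded protein and integrated stress responses 3 of 11 were higher (3.55% of all compared genes). They were Ppp1r15a, the subunit that directs dephosphorylation of eIF2alpha, at 19.6, 29.6 and 216 (11.03-fold, [6.77 to 19.4]), the chaperone Calr (2.20-fold) and Atf4 (2.09-fold). Ddit3, Herpud1, Manf and Pdia6 had ratios of 1.95, 1.79, 1.72 and 1.70, Xbp1 of 1.36 and Pdia4 of 0.823. None of the 5 compared genes of oxidative and metal stress passed 2-fold (Sod2 1.73, Prdx1 1.44, Nfe2l2 0.967 and Mt1 0.755). Of 9 compared p53 targets and apoptosis genes, the survival gene Mcl1 was 2.42-fold higher, Sesn1 was at 151 CPM in library 1 and 63.6 in library 3 (ratio 0.422), and Cdkn1a and Bax had ratios of 1.46 and 1.32.

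**Figure D4:**
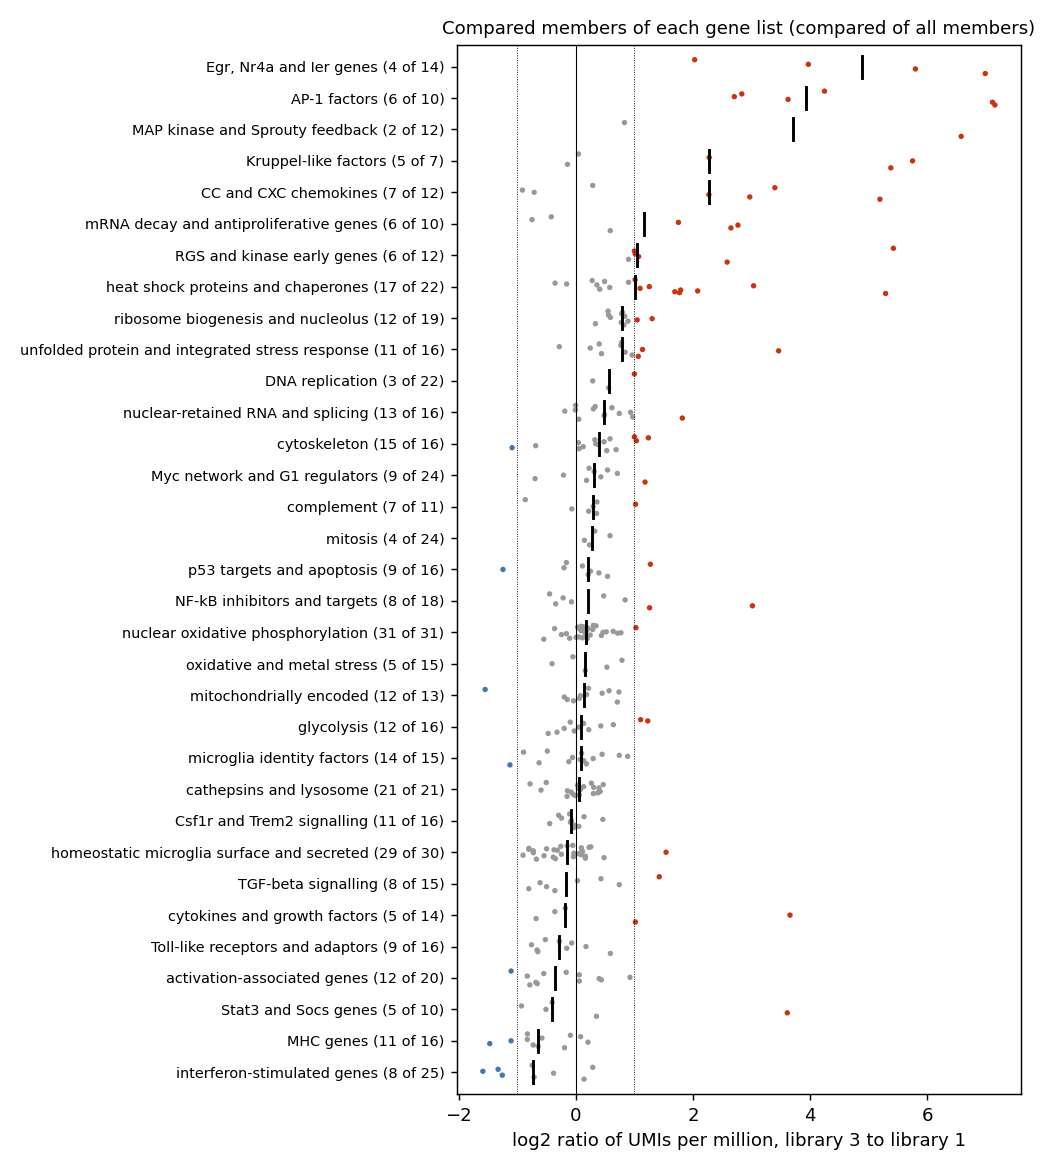
Log2 ratio of library 3 to library 1 (x axis) for the compared genes of each list (y axis, with the number compared of all members; the ribosomal protein and marker lists are not drawn), red where at least 2-fold higher, blue where at least 2-fold lower and grey between, with a black bar at the list's median and dotted lines at 2-fold. The early response, chemokine and heat shock lists lie to the right, and the lists of MHC and interferon-stimulated genes have the lowest medians, −0.64 and −0.73.

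Myc, a growth factor-induced transcription factor, was at 41.7, 37.7 and 94.5 CPM in libraries 1, 2 and 3 (2.27-fold, [1.61 to 3.31]) and was found in 7.11% of cells of library 1 and 16.4% of library 3. Over cells of 2000 to 4000 UMIs the ratio was 1.983, short of 2-fold, and before thinning Myc was found in 5.91% and 37.5% of cells of libraries 1 and 3, which differ in depth. At 41.7 CPM in library 1, Myc was compared through library 3 alone and had to have a ratio above 1. It was the 1 higher gene among 9 compared genes of the Myc network and of entry into the cycle (3.55% of all compared genes). In that list Cdk4 and Ccnd1 had ratios of 1.64 and 1.34 and the Myc antagonist Mxd4 one of 0.617. The 12 compared ribosome biogenesis genes had a median log2 ratio of 0.79. Their ratios were all above 1 (47.0% of all compared genes), but 4 of them were compared through library 3 alone and had to be, and 2 of the 12 reached 2-fold, Nhp2 (45.3, 106 and 112 CPM, 2.47-fold) and Nop58 (2.07-fold), and the abundant nucleolar genes Ncl and Npm1 had ratios of 1.77 and 1.26. The 81 compared cytosolic ribosomal protein genes had a median log2 ratio of 0.00, and their summed level was 89548 CPM in library 1, 111614 in library 2 and 89502 in library 3.

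Few genes of the replication and mitosis lists reached the level for comparison, and 1 of those passed 2-fold. Mki67, a marker of cycling cells, had 2 UMIs in library 1 and 8 in library 3 (2.45 and 1.22 CPM, a ratio of 0.497 [0.0992 to 4.80]), against 75.5 CPM in library 2, and Cdk1 stood at 2.45, 36.6 and 5.18 CPM. Of the 22 genes of the replication list 3 were compared, and the 1 that passed 2-fold was Stmn1. It encodes a regulator of microtubules and not a part of the replication machinery. Stmn1 was at 35.5, 563 and 71.1 CPM (ratio of library 3 to library 1 2.001 [1.37 to 3.02]) and was compared through library 3 alone. Of 24 mitosis genes 4 were compared and none passed 2-fold, among them the histone gene H2afz (344, 1115 and 381 CPM) and Tubb5 (281, 644 and 421 CPM). In each of these 5 genes library 2 was the highest library.

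A few of the energy genes passed 2-fold. Of 12 compared genes of glycolysis and its control 2 were higher (3.55% of all compared genes), Pkm (129.9, 398 and 304 CPM, 2.34-fold) and Ldha (2.15-fold), which act at its last steps. Gapdh, Aldoa and Hk2 had ratios of 1.56, 1.04 and 0.800. Of 31 nuclear genes of oxidative phosphorylation 1 was higher (3.55% of all compared genes), Atp5b, a subunit of ATP synthase (2.04-fold). The list's median log2 ratio was 0.17. The 12 compared mitochondrially encoded genes had 1 called member, mt-Atp8, at 286, 111 and 97.6 CPM (ratio 0.342), although the overlapping gene mt-Atp6 was at 1789, 3504 and 2651 CPM (ratio 1.48). Reads of these overlapping genes may be split between them, so the mt-Atp8 value is uncertain. Of 13 nuclear-retained and splicing RNAs, Neat1, the scaffold of paraspeckles, was at 82.1, 65.1 and 289.6 CPM (3.53-fold), while Malat1 had a ratio of 1.04 and the splicing factors Srsf5 and Ddx5 of 1.67 and 1.26. Of 15 compared cytoskeleton genes, Tubb4b (2.36-fold) was among 3 that were higher, and Tmsb10 (430.1, 297 and 202 CPM, ratio 0.470) was lower, while Actb and Tmsb4x had ratios of 1.44 and 1.04.

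Of the markers of microglia, the labelled cell type, P2ry12, Tmem119, Csf1r and Cx3cr1 were found in nearly all cells of both libraries. Fcrls was in 85.8% of cells of library 1 and 92.8% of library 3, and Sall1, given below, in fewer. Tmem119, a membrane protein of microglia, was found in 98.8% of cells of library 1 and 99.9% of library 3, at 2752, 3485 and 3847 CPM in libraries 1, 2 and 3 (ratio 1.40). Fcrls was at 1289, 1213 and 1443 CPM (1.12) and the receptor kinase Csf1r, on which microglia depend, at 2377, 1779.9 and 2312 (0.972). The purinergic receptor P2ry12 was at 4102, 2357 and 2571 (0.627 [0.604 to 0.651]) and the fractalkine receptor Cx3cr1, 1 allele of which carries the reporter, at 2027, 1526 and 1553 (0.766). Both were lower in library 3 without reaching 2-fold. Over cells of 2000 to 4000 UMIs the ratios of P2ry12 and Cx3cr1 were 0.685 and 0.808. Within library 3 P2ry12 was at 3076 CPM in cells of 2000 to 3000 UMIs before thinning and at 2028 in cells of 8000 or more.

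Over the 29 compared homeostatic surface and secreted genes the median log2 ratio was −0.15, and 1 gene was higher (3.55% of all compared genes). It was the orphan receptor Gpr84 at 194, 351 and 563 CPM (2.91-fold, [2.48 to 3.43]), which is known to be induced in stimulated microglia. The largest differences downward were in Gpr34 (1841, 847 and 985 CPM, 0.535), Tgfbr1 (0.573), Entpd1 (0.574) and the secreted protease inhibitor Cst3, which alone took 61306 CPM in library 1, 37272 in library 2 and 37038 in library 3 (0.604). In each of these 4 genes library 2 was nearer to library 3 than to library 1. Trem2, Tyrobp, Sparc and Olfml3 had ratios of 1.04, 0.977, 1.08 and 1.07. Of 14 compared identity factors 1 was lower (3.49% of all compared genes) and none higher. It was Sall1, a repressor that keeps microglia distinct from other macrophages, at 199, 97.9 and 91.0 CPM (0.459 [0.385 to 0.549]) and in 33.6% and 16.4% of cells of libraries 1 and 3. Irf8, Spi1 and Mef2c had ratios of 1.23, 1.05 and 0.921, and Runx1 and Smad7 of 1.85 and 1.67.

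Neither Csf1r and Trem2 signalling (11 compared) nor the lysosome list (21 compared) held a gene past 2-fold. The abundant proteases Ctss, Ctsd and Lgmn had ratios of 0.901, 0.994 and 1.04, and the lysosome list's median log2 ratio was 0.05. Of 8 compared TGF-beta genes 1 was higher (3.55% of all compared genes), Id2, a target of the pathway (61.3, 57.9 and 165 CPM, 2.69-fold). In the complement list the receptor C5ar1 was at 191, 235 and 388 CPM (2.03-fold), while C1qa, C1qb and C1qc, which form the recognition molecule, had ratios of 1.28, 1.17 and 0.954. Genes often raised in reactive microglia were mixed. Fth1 and Ftl1, which store iron, had ratios of 1.35 and 1.32 and Tspo one of 1.90, while Apoe had a lower level in library 3 (915, 527 and 531 CPM, 0.580) although more of its cells held a UMI (40.7% and 54.5%) and 5% of the cells of library 1 held 66.8% of its Apoe UMIs (35.6% in library 3). Level and share of cells disagree for Apoe, so no order is read from them.

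Antigen presentation and interferon genes were the lists with the lowest medians. Of 11 compared MHC genes 2 were lower and 0 higher (3.49% and 3.55% of all compared genes). The list's summed level was 8884, 6269 and 5753 CPM in libraries 1, 2 and 3. B2m, the light chain of class I molecules, was at 5404, 3489 and 3043 CPM (0.563 [0.545 to 0.582]) and the heavy chain gene H2-D1 at 1462, 909 and 936 (0.640), short of 2-fold. The nonclassical gene H2-T23 (143, 48.2 and 51.8 CPM, 0.361, and 0.586 with cells of at least 1000 UMIs, which is short of 2-fold) and the class II invariant chain Cd74 (99.3, 61.4 and 46.1, 0.465) passed it. H2 genes are similar in sequence and share reads, so the value of a single H2 gene is uncertain. Of 8 compared interferon-stimulated genes 3 were lower, and of all compared genes 3.49%. They were Rtp4 at 114, 66.8 and 37.9 CPM (0.333), Xaf1 at 94.4, 38.0 and 37.6 (0.399) and Ifi27l2a at 142, 239 and 59.5 (0.419), of which the last was highest in library 2. The 5% of cells with most UMIs held 50.5% of Rtp4 and 55.2% of Ifi27l2a in library 1, and 71.1% and 50.1% in library 3. The highest cell held 6 Rtp4 and 13 Ifi27l2a UMIs in library 1, and 2 and 3 in library 3. Rtp4, Xaf1 and, in the MHC list, Cd74 were compared through library 1 alone and had to have a ratio below 1. Bst2 and Lgals3bp had ratios of 0.768 and 1.22. None of 9 compared Toll-like receptor genes passed 2-fold (Tlr2 1.51, Cd14 0.952 and Irak2 0.592).

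Of the 114 lower genes 97 were protein-coding (85.1%, against 98.6% of compared and 97.4% of higher genes). The 3 lower genes of lowest ratio that carry a gene name of their own, and not that of a copy or a predicted gene, have unrelated roles. Tmem80 was at 135, 47.2 and 37.5 CPM in libraries 1, 2 and 3 (0.278 [0.221 to 0.351]), Madd, which acts in vesicle traffic and TNF receptor signalling, at 102, 51.1 and 32.0 (0.314) and the ribonuclease Rnaset2b at 759, 237 and 221 (0.291). Rnaset2b has the near-identical neighbour Rnaset2a, so its value is uncertain. The lower genes with most UMIs were Rsrp1 and Serinc3, both chosen after their values were seen. Rsrp1, an arginine- and serine-rich protein, was at 2093, 1581 and 988 CPM (0.472 [0.448 to 0.498]), and Serinc3, a membrane protein, at 2282, 719 and 760.2 (0.333 [0.316 to 0.352]). The gene of lowest ratio was Gm42726, annotated as antisense, at 104, 15.1 and 17.7 CPM (0.170), and since the strand setting of the counting is not given in the sources used here its reads cannot be told from those of the gene on the other strand. Library 2 was nearer to library 1 for Rsrp1 and nearer to library 3 for the other 5 of these genes.

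A group of the lower genes carried the names of gene copies or of predicted genes. Of 33 compared genes whose symbol ends in -ps and a number or is Gm and a number, 18 were lower (54.5%) and 1 higher, against 2.97% lower among the 3231 other compared genes. Of the 11 annotated as processed pseudogenes, which are copies of an mRNA put back into the genome, 9 were lower. Rpl9-ps6 was at 297, 73.5 and 71.9 CPM and the ribosomal protein gene copy Rps27rt at 980.4, 276 and 246. For 10 pairs of a copy and its parent gene (Rps27rt and Rpl6l with their parents were added after their values were seen), all 10 copies were at least 2-fold lower in library 3, but only 1 parent was, Rpl27 at 721, 388 and 342 CPM. The median log2 ratio was −1.68 over the copies and −0.17 over the parents. Rpl9-ps6 held 23.4% of the UMIs of itself and Rpl9 in library 1, 6.65% in library 2 and 7.58% in library 3. Over the last 300 bases of the transcripts a copy shared between 54.1% and 100% of its 31-base words with its parent (median 91.3%), so reads can be assigned to either, and the values of these copies are uncertain. Without the genes whose symbol has the -ps or Gm form, 115 genes were higher and 96 lower, with Rps27rt and Rpl6l still among the 96.

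**Figure D5:**
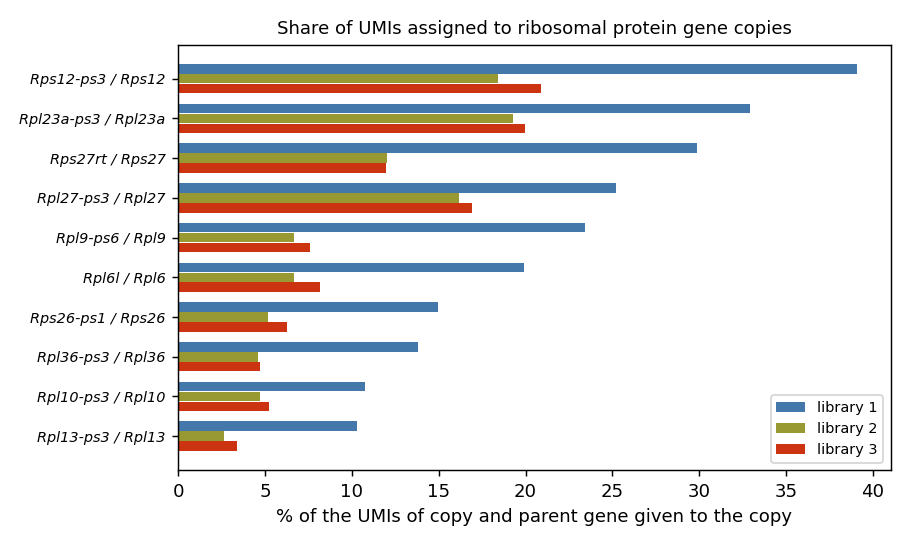
Share of the UMIs of a ribosomal protein gene copy and its parent gene together that was assigned to the copy (x axis, %), for 10 pairs named copy / parent (y axis) in libraries 1, 2 and 3 (bars). In all 10 pairs the share is highest in library 1, for example 39.1% in library 1, 18.4% in library 2 and 20.9% in library 3 for Rps12-ps3.

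Other cell types were close to absent from both libraries. Of 62 marker genes in 11 lists (monocytes, border macrophages, neutrophils, T or NK cells, B cells, red blood cells, astrocytes, oligodendrocytes, neurons, endothelial and mural cells) 60 were in the file, and their summed level was 391 CPM in library 1, 359 in library 2 and 340 in library 3. Only the astrocyte transporter Slc1a3 (156, 102 and 109.8 CPM) and the oligodendrocyte enzyme Cnp (72.3, 86.2 and 74.0) reached the level for comparison, with ratios of 0.705 and 1.02. All 7 border macrophage, 6 neutrophil, 5 red blood cell and 4 mural markers had 0 UMIs in library 1, where the exact upper limit is 4.52 CPM. In library 3, which held more UMIs in total, these lists held 9, 45, 31 and 2 UMIs (1.37, 6.85, 4.72 and 0.305 CPM). The monocyte receptor Ccr2 had 1 UMI in library 1 and 5 in library 3 (1.23 and 0.761 CPM). Mrc1, a marker of border macrophages, had 0 and 1. Cd163 had 0 UMIs in both libraries.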

How the data were processed

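The authors deposited raw UMI counts in 1 table of 27998 genes by 7522 cells, from 3 libraries of 10x Genomics 3′ single-cell RNA-seq. The submitters' processing notes name Cell Ranger 2.1.1 and mm10. The sources used here do not give the strand setting of the counting or any down-sampling at the joining. No doublet caller was run. The methods state doublet exclusion in the sort, which came before the libraries were made, and whether doublets remain among the counted cells was not tested.

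Each cell with at least 2000 UMIs was thinned without replacement to 2000 (seed 1), UMIs were summed per library, and CPM are per 1000000 thinned UMIs. A gene was compared if its mean CPM in libraries 1 and 3 was at least 50 and called at a ratio of at least 2, with no pseudocount and a floor of 3 UMIs for a count of 0. Intervals are exact 95% limits for ratios of counts (binomial) and do not cover the spread between animals. Cells are not replicates, so no test was made.

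The genes named were the 15 highest and 15 lowest ratios, and in each list the 3 members of highest level and both extremes. Other list members were named after their values were seen. The comparison and the gene lists were chosen with earlier results of these data known. Gene positions and types are those of GENCODE M21 on GRCm38, with 3262 of 3264 compared identifiers found, which may differ from the annotation counted on. Python 3.11.15, numpy 2.4.6, scipy 1.17.1 and pandas 2.3.3 were used. The thinning and calls were tested on simulated data. Alternatives changed the cells, the depth, the total, the level filter, the pseudocount, the fold and the seed.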

Additional observations from a re-analysis of the deposited data

How the results depend on the processing

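No paired analysis was possible because the libraries carry no replicate numbers and each side is 1 library. Of 314 values recomputed under 13 alternatives, 256 stayed within their counting interval or, for the numbers of genes called, within 1.5 times, and 58 moved by more. Ratios were recomputed only for chosen genes and list sums, and none of those past 2-fold changed direction. Of 264 ratios, 13 moved by over 1.5 times. The ratio of Tnfaip3, which was not called, turned from 1.02 to 0.867 with cells of at least 1000 UMIs and to 0.536 over cells of 2000 to 4000 UMIs. Of the single ratios recomputed that the report names, the alternatives ended the call of Myc (1.983 over cells of 2000 to 4000 UMIs) and of H2-T23 (0.586 with cells of at least 1000 UMIs). A pseudocount of 10 CPM lowered the ratios that rest on few UMIs in library 1 to 38.0 for Fosb, 54.5 for Egr1, 19.7 for Ccl2 and 15.4 for Hspa1a. Over cells of 2000 to 4000 UMIs the summed ratios of library 3 to library 1 were 4.55 for early response genes, 2.21 for heat shock genes and 0.751 for homeostatic genes, and setting the median log2 ratio to 0 gave 0.743 for homeostatic genes. In the main setting these sums gave 5.55, 2.48 and 0.726. The homeostatic sum rests largely on Cst3, at 61306 of 100560 CPM in library 1 and 37038 of 73045 in library 3. Of the 29 compared homeostatic genes 11 had a log2 ratio above 0 and 18 below. In place of 116 higher and 114 lower genes, a mean of at least 20 CPM gave 231 and 282, at least 200 CPM gave 47 and 21 (69.1% of the calls higher, against 50.4%), no filter gave 710 and 4176 (14.5% higher) and a ratio of at least 1.5 gave 348 and 436. Without a filter most compared genes rest on a few UMIs, and 1 UMI is 1.23 CPM in library 1 and 0.152 in library 3. The share of cells with Fos in library 3 was 100% before thinning and, counting only cells with at least 2 UMIs of it, 96.4% in library 3 and 0.490% in library 1. Removing cells over 5% mitochondrial UMIs, leaving mitochondrial and ribosomal protein genes out of the total, using all cells unthinned and thinning with seed 2 kept the counts of calls within 1.5 times. The depth of library 1, 408 cells at 2000 UMIs, limits every ratio.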
